A study of Mus musculus with 3 samples.

Results

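A set of 34 genes of cholesterol synthesis, sterol sensing, uptake, storage and efflux was followed in RNA held on the chromatin of mouse macrophages. The set was chosen by gene symbol, and all 34 symbols were found in the gene tables and in both kinds of transcript table, among 55536 annotated genes. It holds 17 enzymes of cholesterol synthesis, 5 genes of the SREBP machinery, 2 liver X receptors (LXR), 6 LXR targets, the oxysterol enzyme Ch25h, and 3 genes of sterol storage and lysosomal export.

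The cells were bone marrow-derived macrophages of the mouse strain C57BL/6J, which are grown in culture from marrow progenitors. Lipid A, the lipid anchor of bacterial endotoxin, which macrophages sense through a Toll-like receptor, was given to all of them at 100 ng/ml for 12 h and washed out for 12 h. A second dose of the same strength followed, and RNA was taken 120 min into it. The 3 libraries are biological replicates of this 1 condition, made from chromatin RNA after removal of ribosomal RNA, and replicate 1 started from 1 µg of RNA, replicate 2 from 250 ng and replicate 3 from 500 ng. The labels do not say whether the replicates came from separate animals, so every SD below describes these samples alone and may be technical. No cells without Lipid A or with a single dose were analysed here, so the values are levels and not responses, and with 3 libraries no exact sign-flip test could go below p = 0.25.

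A cell that lacks cholesterol in its endoplasmic reticulum moves the precursor proteins SREBP1 and SREBP2 to the Golgi with the escort protein SCAP, where they are cut and released to the nucleus. SREBP2 mainly drives the genes of cholesterol synthesis and uptake, and SREBP1 those of fatty acid synthesis, while the INSIG proteins hold the complex back when sterols are plentiful. LXR works on the other side of the balance: bound to oxysterols and paired with RXR, it drives genes that export cholesterol and remodel lipids. Macrophages take in cholesterol with lipoproteins and dead cells, and are known for handling the excess by esterification and efflux.

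Expression is given as TPM, a relative transcript abundance that is scaled by transcript length and so can be compared between genes, taken from the tables made from alignments unless called read-based. The 8 macrophage markers checked were all expressed, with a summed level of 832 to 1260 TPM. None of the 18 markers of other cell types that are reported was, their summed level was 1.67 to 3.02 TPM, and 7 of them, Cd3e and Alb included, had no alignment-based count in any library. The read-based values held 2 exceptions, the T cell marker Cd3d at 14.5, 14.6 and 13.3 TPM and the endothelial marker Pecam1 at 4.10, 9.82 and 9.68 TPM. Replicate 1 held 10293545 expected counts, replicate 2 held 17820066 and replicate 3 held 17548564, of which the 34 genes took 0.241%, 0.235% and 0.172%.

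The start regions of the genes that the results turn on are shown first, because SREBP2 and LXR act through short motifs in such regions. Each is the RefSeq promoter on build GRCm38.p6, from 250 bases before the annotated start to 50 bases from it on, written 5′ to 3′ on the strand of the gene. Capitals mark matches, on either strand, to the core of the sterol regulatory element (TCACNCCAC), the NF-Y box (CCAAT), the Sp1 box (GGGCGG), and a loose form of the repeat that LXR binds with RXR (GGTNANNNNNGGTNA). Hmgcs1 (chr13:119690101-119690400, plus strand) and Msmo1 (chr8:64733529-64733828, minus strand) are the most expressed synthesis enzymes, and Insig1 (chr5:28071162-28071461, plus strand) encodes a protein that retains the SREBP complex in the endoplasmic reticulum.
Hmgcs1: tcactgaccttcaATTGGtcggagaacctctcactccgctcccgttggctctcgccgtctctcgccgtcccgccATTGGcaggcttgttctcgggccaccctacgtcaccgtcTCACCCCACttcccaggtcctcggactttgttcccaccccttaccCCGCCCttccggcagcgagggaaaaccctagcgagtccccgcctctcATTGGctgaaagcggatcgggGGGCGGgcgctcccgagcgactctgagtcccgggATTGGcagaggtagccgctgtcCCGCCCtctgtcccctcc
Msmo1: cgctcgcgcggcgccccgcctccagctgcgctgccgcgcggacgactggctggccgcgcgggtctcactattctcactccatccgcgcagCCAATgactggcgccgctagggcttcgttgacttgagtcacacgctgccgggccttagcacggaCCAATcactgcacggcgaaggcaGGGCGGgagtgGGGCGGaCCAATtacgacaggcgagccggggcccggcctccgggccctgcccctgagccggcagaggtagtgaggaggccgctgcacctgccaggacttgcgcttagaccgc
Insig1: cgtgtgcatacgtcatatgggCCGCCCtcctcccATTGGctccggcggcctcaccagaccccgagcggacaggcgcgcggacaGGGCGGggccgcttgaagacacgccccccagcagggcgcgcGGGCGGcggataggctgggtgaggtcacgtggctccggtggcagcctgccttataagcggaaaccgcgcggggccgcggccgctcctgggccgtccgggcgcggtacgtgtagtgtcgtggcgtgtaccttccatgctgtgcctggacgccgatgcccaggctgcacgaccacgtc

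Abca1 (chr4:53159846-53160145, minus strand) is the LXR target with the highest alignment-based TPM in each library. Srebf1 encodes SREBP1. Of its 3 listed promoters, 2 lie at coding isoforms and are shown, called here the upstream start (chr11:60220578-60220877, minus strand) and the downstream start (chr11:60210422-60210721, minus strand), known for the SREBP-1a and SREBP-1c forms. The third, farther upstream (chr11:60222532-60222831, minus strand), lies at the processed transcript Srebf1-204. This transcript was at 1.54, 0.00 and 0.00 TPM, but at 9.46, 2.78 and 6.17 TPM read-based.
Abca1: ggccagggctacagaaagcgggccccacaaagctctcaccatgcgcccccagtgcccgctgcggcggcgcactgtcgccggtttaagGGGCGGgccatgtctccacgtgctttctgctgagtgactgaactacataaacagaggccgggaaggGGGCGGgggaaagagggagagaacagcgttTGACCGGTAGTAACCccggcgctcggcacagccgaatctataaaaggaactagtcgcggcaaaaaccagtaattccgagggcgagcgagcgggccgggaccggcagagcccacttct
Srebf1 upstream: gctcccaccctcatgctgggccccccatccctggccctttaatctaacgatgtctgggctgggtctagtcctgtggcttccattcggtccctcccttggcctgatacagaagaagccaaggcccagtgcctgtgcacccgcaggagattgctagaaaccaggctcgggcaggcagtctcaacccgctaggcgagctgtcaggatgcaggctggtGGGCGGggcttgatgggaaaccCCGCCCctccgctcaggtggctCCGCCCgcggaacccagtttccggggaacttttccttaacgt
Srebf1 downstream: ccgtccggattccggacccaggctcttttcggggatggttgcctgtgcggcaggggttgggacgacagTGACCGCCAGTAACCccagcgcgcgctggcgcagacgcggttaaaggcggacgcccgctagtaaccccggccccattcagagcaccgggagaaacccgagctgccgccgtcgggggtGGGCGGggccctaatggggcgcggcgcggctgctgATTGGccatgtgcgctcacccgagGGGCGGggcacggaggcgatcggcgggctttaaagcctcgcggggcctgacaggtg

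The NF-Y box was in 13 of the 17 promoters listed for synthesis enzymes, against 37.4% of all 32851 promoters and 37% of the 9474 promoters of expressed protein-coding genes. These promoters belong to 14 enzymes, of which 13 had the box in at least 1 promoter, and Acat2 did not. Msmo1 held 3 copies, the first beginning 160 bases before the start, and Hmgcs1 held 4. For the LXR targets the box was in 2 of the 6 promoters listed for 4 genes, those of Mylip and Lpcat3. The Sp1 box was in 14 of the 17 enzyme promoters and 3 of the 6 promoters of LXR targets, beside 35.7% of all promoters and 63.2% of those of expressed genes.

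The sterol regulatory core was found in 1 of the 39 promoters of the set, that of Hmgcs1, where it begins 137 bases before the start and reads TCACCCCAC. Its share among all promoters was 1.24%. The loose LXR repeat was found in 2 promoters of the set, against 0.718% of all promoters. In Abca1 it begins 67 bases before the start and reads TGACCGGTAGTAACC, and in the downstream promoter of Srebf1 it begins 182 bases before the start and reads TGACCGCCAGTAACC, both on the opposite strand. Promoters were listed for 28 of the 34 genes and not for Abcg1, Fdft1, Fdps, Npc1, Scd2 and Sqle.

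Of the 34 genes, 29 were expressed, meaning that no library had a TPM under 1, against 42% of all 22028 protein-coding genes. The 5 others were Ch25h and the enzymes Acat2, Mvk, Hsd17b7 and Dhcr7. In every library 14 of the 29 exceeded the median of all expressed protein-coding genes, against 44% of all 9245 expressed genes, so the set as a whole was not placed higher than other expressed genes by this count. The count differed between its roles. Only 2 of the 13 expressed synthesis enzymes exceeded that median gene, while 4 of the 6 LXR targets, both LXR genes, 3 of the 5 SREBP machinery genes and all 3 storage and export genes did. Fewer cells with a transcript and less of it per cell cannot be told apart in these bulk libraries.

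**Figure D1:**
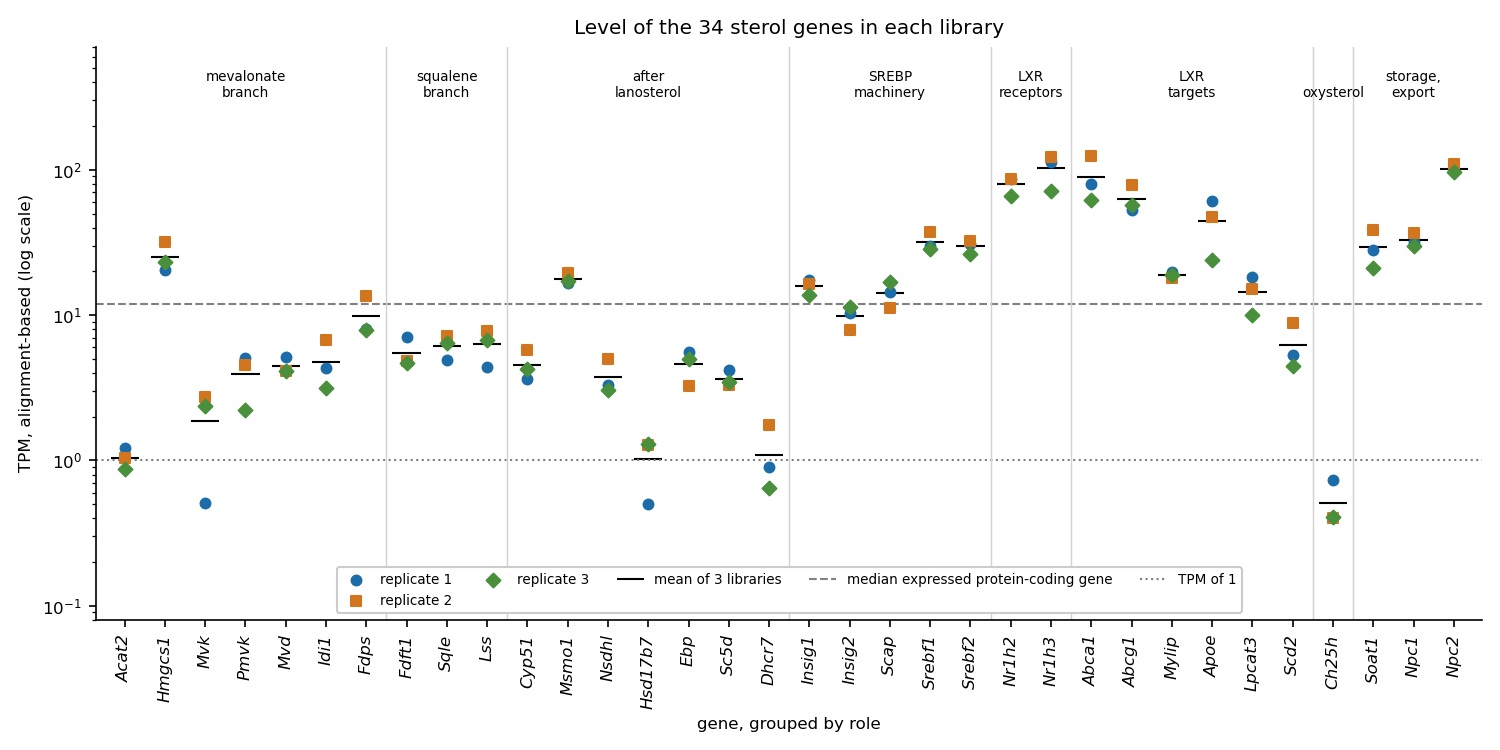
Level of each of the 34 genes (TPM, log axis) in each library, by role; symbols are libraries, bars the mean of 3, the dashed line the median expressed protein-coding gene (12.0 TPM) and the dotted line a TPM of 1. All synthesis enzymes but Hmgcs1 and Msmo1 have means below the dashed line, and the LXR genes, Abca1, Abcg1 and Npc2 have means above 60 TPM.

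The mevalonate branch builds the isoprenoid units of the sterol from acetyl-CoA. Hmgcs1, which makes HMG-CoA, was the highest of all 17 enzymes in every library, at 20.47, 32.09 and 23.34 TPM in replicates 1, 2 and 3, or 25.3 ± 6.05 (SD, n = 3). Its gene spans chr13:119690379-119708260. Fdps, which makes farnesyl diphosphate, was the third enzyme in every library at 8.04, 13.55 and 7.85 TPM, and the most expressed of this branch after Hmgcs1.

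The enzymes between them were lower. Mvd, the decarboxylase that makes isopentenyl diphosphate, stood at 5.13, 4.12 and 4.13 TPM, Idi1, its isomerase, at 4.33, 6.70 and 3.17, and Pmvk, the phosphomevalonate kinase, at 5.08, 4.57 and 2.22. Mvk, the mevalonate kinase, was at 0.51, 2.74 and 2.37 TPM, with only 14 expected counts in replicate 1. Acat2, the cytosolic thiolase of the branch's entry, was at 1.22, 1.04 and 0.88 TPM on 27.2 to 30.2 counts, and reads of its close relative Acat3 may be split wrongly with it.

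The 3 enzymes of the squalene branch had similar levels. Fdft1, squalene synthase, stood at 7.04, 4.80 and 4.68 TPM, Sqle, squalene epoxidase, at 4.89, 7.15 and 6.44, and Lss, which closes the rings to lanosterol, at 4.41, 7.74 and 6.74. In no library did any of the 3 reach the median gene. The end of Fdft1 overlaps Ctsb on the other strand by 774 bases, and Ctsb was at 157 to 225 TPM, so that some of its count could be misassigned if strand was not used.

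Among the enzymes after lanosterol, 1 stood apart. Msmo1, the methylsterol monooxygenase that strips methyl groups from the sterol ring, was at 16.65, 19.55 and 17.16 TPM, or 17.8 ± 1.55 (SD, n = 3), second among the enzymes in every library. The other 6 had means of 1.02 to 4.60 TPM. Cyp51, the lanosterol demethylase, was at 3.63, 5.71 and 4.24 TPM, Ebp, the sterol isomerase, at 5.57, 3.26 and 4.96, Nsdhl, which works with Msmo1, at 3.33, 4.97 and 3.03, and Sc5d, the sterol desaturase, at 4.19, 3.29 and 3.44.

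Hsd17b7, the ketone reductase of the same complex, was at 0.50, 1.27 and 1.29 TPM. Dhcr7, the reductase at the end of one branch of the pathway, was at 0.90, 1.74 and 0.65 TPM on 18, 41 and 25 expected counts. The deposited credibility intervals of Dhcr7, 1.50 to 5.66, 2.13 to 11.0 and 1.28 to 7.42 TPM, lay above its TPM in all 3 libraries, the only gene of the set with that in each library. Its level is therefore not settled by this table. The opposite held for Abca1 and Npc2, whose TPM lay above their intervals in all 3 libraries, by less: those of Abca1 were 72.7 to 78.4, 112 to 118 and 56.8 to 59.8 TPM, and those of Npc2 87.5 to 98.1, 96.6 to 107 and 85.8 to 94.8 TPM.

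The SREBP machinery lay between the synthesis enzymes and the LXR genes. Srebf1 was at 29.70, 37.08 and 28.35 TPM and Srebf2, which encodes SREBP2, at 31.06, 32.58 and 26.28. The ratio of Srebf1 to Srebf2 was 0.956, 1.14 and 1.08, so neither gene led in every library. In the read-based values it was 1.45, 1.18 and 1.25, with Srebf1 the higher each time. Gm49502, a gene on the same strand, overlaps Srebf2 by 2110 bases and was at 10.44, 13.01 and 8.88 TPM. How reads were split between Gm49502 and Srebf2 was not tested. Scap was at 14.36, 11.19 and 16.85 TPM. Insig1, itself a known SREBP target, was at 17.46, 16.43 and 13.82 TPM and exceeded the median gene each time.

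Insig2, which encodes the other INSIG protein, was at 10.39, 7.89 and 11.36 TPM, in replicates 2 and 3 below its intervals of 9.32 to 22.4 and 11.8 to 25.5. The ratio of Insig1 to Insig2 was 1.68, 2.08 and 1.22 here. In the read-based quantification, which was made from the reads without that alignment, it was 0.971, 0.756 and 0.489, so the order of the INSIG genes depends on the quantification.

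Both LXR genes were among the 4 highest of the set in every library. Nr1h3, which encodes LXRα, was at 113.84, 121.66 and 71.22 TPM, and Nr1h2, which encodes LXRβ, at 86.82, 86.46 and 66.46. Nr1h3 was the higher in each library, at ratios of 1.31, 1.41 and 1.07, and the read-based ratios were 1.05, 1.56 and 1.11. In replicate 3 their intervals overlapped, at 64.0 to 72.8 and 60.0 to 73.7 TPM. Isoforms other than protein coding took 78.7%, 58.1% and 63.0% of Nr1h3 and 47.9%, 43.5% and 46.7% of Nr1h2. The order therefore holds for the whole genes and not for their coding isoforms alone. A pseudogene of Nr1h2 is annotated, and reads may be split between the copies. The other 2 genes of the highest 4 were Abca1 and Npc2, and the order among the 4 differed between libraries.

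The LXR targets spanned a wide range. Abca1, the transporter that loads cholesterol onto apolipoprotein A-I, was at 79.88, 124.53 and 62.25 TPM, and by its length and level it held 38.0%, 44.8% and 35.2% of the counts of the whole set. Abcg1, which exports cholesterol to high-density lipoprotein, was at 53.29, 78.44 and 56.82 TPM. Apoe, an apolipoprotein of the particles that carry exported sterol, was at 61.34, 47.16 and 24.12, the least even of the 3.

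The ratio of Abca1 to Abcg1 was 1.50, 1.59 and 1.10, but 0.960, 1.10 and 0.730 in the read-based values, so their order is not settled. Mylip, the ubiquitin ligase that degrades lipoprotein receptors and so limits uptake, was at 19.92, 18.14 and 18.76 TPM. Lpcat3, which builds polyunsaturated phospholipids, was at 18.23, 15.20 and 10.08. Scd2, a fatty acid desaturase, was the lowest target at 5.31, 8.81 and 4.45 TPM and stayed under the median gene throughout.

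Ch25h, which makes the oxysterol 25-hydroxycholesterol, was the lowest or among the 3 lowest of the set, at 0.73, 0.40 and 0.41 TPM on 11, 7 and 8 expected counts. Abca1 was at 109, 311 and 152 times its level. The genes of storage and lysosomal export were high: Npc2, the lysosomal protein that hands cholesterol to NPC1, at 98.38, 110.14 and 96.66 TPM, Npc1 at 31.68, 36.46 and 29.76, and Soat1, which esterifies cholesterol for storage, at 28.20, 38.76 and 21.22. The ratio of Npc2 to Npc1 was 3.11, 3.02 and 3.25, and 2.68, 2.03 and 2.23 in the read-based values.

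Synthesis and LXR-driven genes were then compared within each library. The median of log2(TPM + 0.1) over the 17 enzymes was lower than that over the 6 LXR targets by 2.86, 2.58 and 2.34 in replicates 1, 2 and 3, a difference of -2.59 ± 0.261 (SD, n = 3), or 6.03-fold on this scale. Against the efflux genes Abca1, Abcg1 and Apoe alone the difference was -3.84 ± 0.141, or 14.3-fold. The enzymes were lower in 3 of 3 libraries, and both differences were larger than the spread between replicates. That spread does not measure how much the genes within a list differ. The means of the LXR targets ran from 6.19 TPM (Scd2) to 88.9 TPM (Abca1). No p-value is given, since the genes were chosen with earlier results known.

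The lists nevertheless overlapped. In replicates 1, 2 and 3, 5, 3 and 7 of the 17 enzymes lay above Scd2, the lowest LXR target, and 1, 2 and 2 lay above Lpcat3, the next lowest. Hmgcs1 was the highest enzyme each time, and it exceeded the median of the LXR targets in replicate 3 but not in the other libraries. The level of Abca1 was 3.90, 3.88 and 2.67 times that of Hmgcs1, and 3.64, 2.43 and 1.94 times in the read-based values.

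**Figure D2:**
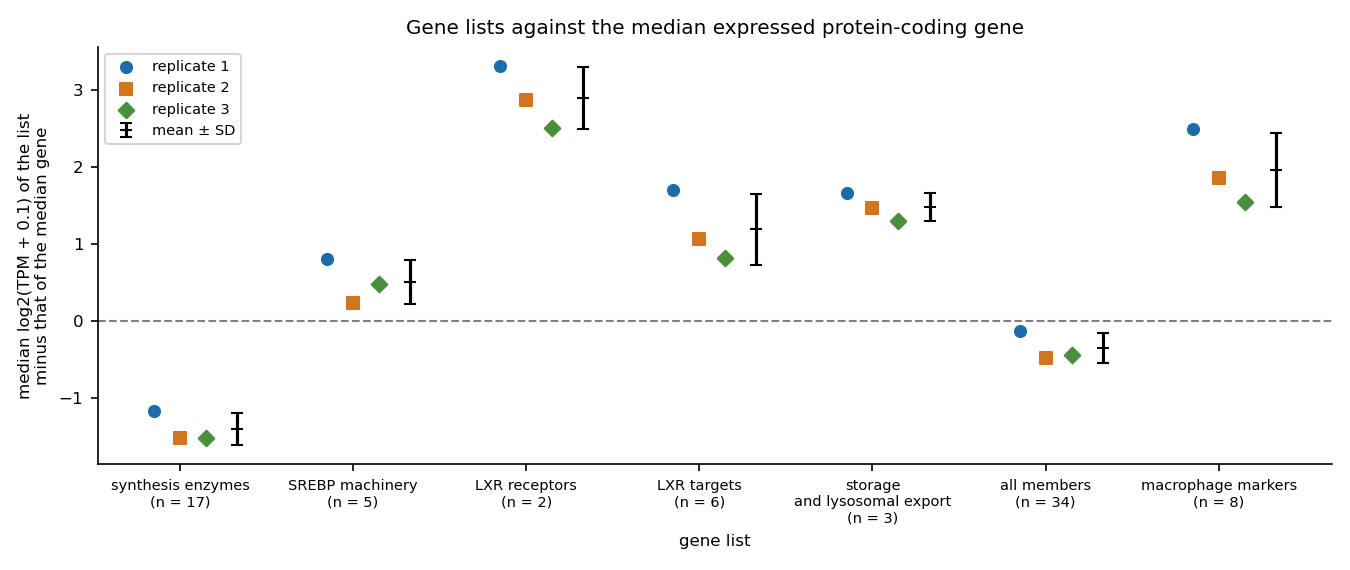
Median log2(TPM + 0.1) of each gene list minus that of the median expressed protein-coding gene, per library (symbols) and as mean ± SD of 3 libraries (bars). The synthesis enzymes lie below 0 in each library (mean -1.40) and the LXR targets above 0 (mean 1.19).

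Set beside the median expressed protein-coding gene, the enzymes were lower by 1.16, 1.52 and 1.52, a mean of -1.40 ± 0.210 (SD, n = 3), and the LXR targets higher by 1.70, 1.07 and 0.815, a mean of 1.19 ± 0.457. The 4 enzymes that were not expressed are part of their list's median, whereas the median gene was found among expressed genes. The LXR genes themselves stood at 2.89 ± 0.403 and the SREBP machinery at 0.508 ± 0.285.

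The distance of the LXR targets from the median gene was largest in replicate 1 and smallest in replicate 3. The 8 macrophage markers had the same order, at 2.49, 1.86 and 1.54 above the median gene, and 7 of the 8 were lowest in replicate 3, as were 6 of the 8 LXR genes and targets. RNA input also differed between the libraries. Their part in the result was not tested.

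The library in which a gene was highest or lowest was counted beside the same over other genes. Replicate 2 gave the highest TPM for 19 of the 34 genes, beside 63.1% of expressed protein-coding genes. Replicate 3 gave the lowest for 19 of the 34, beside 27.4% of expressed genes, and replicate 1 for 8 of the 34, beside 63.6%. These counts are descriptions without a test.

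Spread between replicates was measured as the SD of log2(CPM + 0.5) after TMM scaling in edgeR. The median SD was 0.277 for the 17 enzymes, 0.403 for the 6 LXR targets and 0.288 over all 17110 genes with enough counts. Msmo1 and Sqle were among the steadiest at 0.0513 and 0.0568, and Srebf1 was at 0.0724. Apoe was the least steady gene of the set at 0.754. Without replicate 1 the median of the enzymes fell to 0.171, and that of all genes to 0.149. Of the 17 enzymes, 9 had fewer than 100 expected counts in some library, and their precision is limited by this. The share of all expressed genes with so few counts is not given here, so 9 of 17 cannot be set beside it.

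Isoforms were read from the same tables, with the types of the annotation. Retained-intron isoforms keep intron sequence and are not translated as annotated, and chromatin RNA is rich in transcripts whose splicing is under way. Of the 29 expressed genes, 7 had as their highest isoform by mean TPM over the 3 libraries one that is not protein coding, against 39.2% of all expressed protein-coding genes. They were Hmgcs1, Sqle, Msmo1, Ebp, Nr1h3, Lpcat3 and Npc2, and in each this isoform was a retained intron, as it was in Mvk. In single libraries the order could differ. An isoform that is not protein coding was highest in each of the 3 libraries for 5 expressed members, Msmo1, Ebp, Nr1h3, Lpcat3 and Npc2, against 26.7% of expressed protein-coding genes.

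Isoforms other than protein coding held over 50% of the TPM in every library for 9 of the 26 expressed genes that have such an isoform, beside 43.8% of expressed protein-coding genes with one. These were Sqle, Msmo1, Ebp, Srebf1, Srebf2, Nr1h3, Lpcat3, Npc1 and Npc2. In the read-based values Msmo1, at 49.3% in replicate 3, and Srebf2, at 41.2%, 36.9% and 39.3%, were no longer over 50% throughout, while Lss and Dhcr7 were. The median share was 44.3% ± 5.82 over 30 members with such an isoform, and 53.3% ± 0.365 over 7759 expressed genes. As a share of expected counts, which do not correct for the shorter length of many such isoforms, the median of the members was 20.6%. That share over all expressed genes is not given here. By counts some members were lower, as Srebf1 (18.6%, against 65.2% of TPM), and some higher, as Lss (93.5%, against 52.8%).

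**Figure D3:**
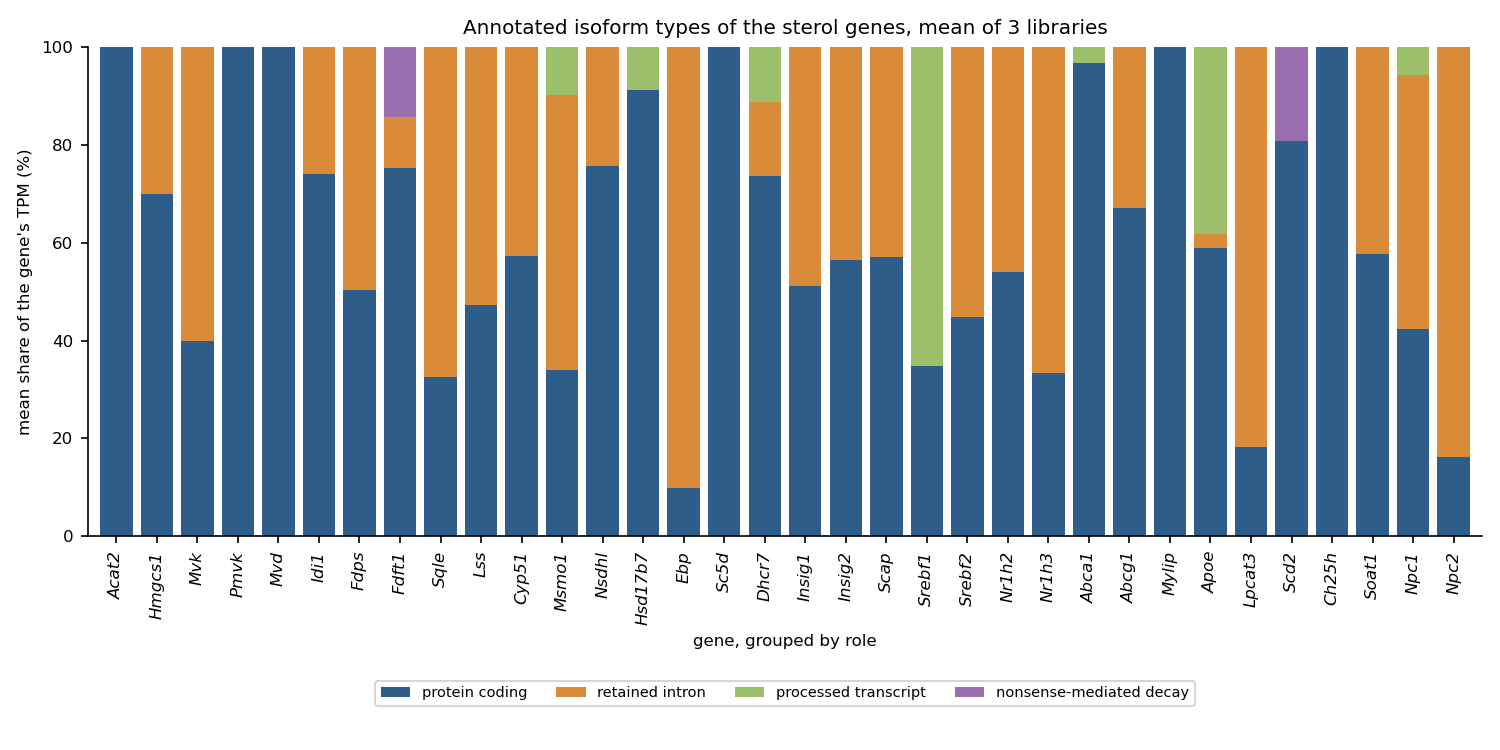
Share of each gene's TPM on each annotated isoform type (%), mean of 3 libraries, genes grouped by role. Ebp, Npc2 and Lpcat3 lie mostly on retained introns (90.2%, 83.7% and 81.7%), Abca1 and Mylip almost wholly on protein-coding isoforms. Neither Abca1 nor Mylip has a retained-intron isoform in the annotation.

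The genes at both ends were unlike. Ebp had 90.2% ± 6.37, Npc2 83.7% ± 2.90 and Lpcat3 81.7% ± 6.64 of their TPM on retained introns. For Npc2 the retained-intron isoforms Npc2-203 and Npc2-202 were at 36.33, 51.81 and 44.88 TPM and at 42.90, 43.15 and 36.65 TPM, and the coding Npc2-201 at 19.15, 15.18 and 15.13. Abca1 has no retained-intron isoform in the annotation, so it cannot be set beside these genes for that type. Its coding isoform Abca1-201 was at 75.74, 120.25 and 61.58 TPM. A processed transcript took the other 5.18%, 3.44% and 1.08%, and 16.1%, 12.6% and 14.8% in the read-based values. Mylip, Sc5d and Pmvk have only protein-coding isoforms in the annotation.

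Among the LXR genes, Nr1h3 was led by the retained-intron isoform Nr1h3-208 at 29.90, 53.32 and 34.80 TPM on average, although Nr1h3-205, another retained intron, was higher in replicate 1 at 31.07, and 66.6% ± 10.8 of its TPM lay on isoforms other than protein coding. Its retained-intron isoform Nr1h3-206 was at 28.66, 5.45 and 1.57 TPM, high in replicate 1 only. For Nr1h2 the share was 46.0% ± 2.27 and the highest isoform was the coding Nr1h2-212 at 20.68, 28.03 and 18.59 TPM.

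In the synthesis pathway Msmo1 was led by Msmo1-203, a retained intron, at 5.92, 7.41 and 6.04 TPM, the highest isoform in every library. Sqle-204, a retained intron, was at 2.22, 3.35 and 2.14 TPM and the coding Sqle-201 at 1.25, 0.52 and 2.40, so that Sqle-201 was the higher in replicate 3. For Hmgcs1 the retained-intron Hmgcs1-204, at 4.59, 10.97 and 7.78 TPM, was highest by mean only. A coding isoform was highest in each library, Hmgcs1-202 in replicates 1 and 3 at 8.87 and 8.49 TPM and Hmgcs1-201 in replicate 2 at 11.71, and the 3 coding isoforms together held the larger part of the gene. An antisense gene, Gm48342, overlaps Hmgcs1 by 6190 bases and was itself at 6.10, 10.89 and 7.41 TPM, and whether strand was used in counting is not given in the sources used here.

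The highest isoform by mean of the remaining genes was protein coding. It was Acat2-201, Pmvk-203, Mvd-201, Idi1-201, Fdps-201, Fdft1-201, Lss-208, Cyp51-201, Nsdhl-201, Hsd17b7-201, Sc5d-202 and Dhcr7-202 among the enzymes, and Insig1-201, Insig2-201, Scap-201, Srebf1-201 and Srebf2-201 in the SREBP machinery. For the others it was Abcg1-205, Mylip-201, Apoe-209, Scd2-201, Ch25h-201, Soat1-206 and Npc1-201. In single libraries the highest of all isoforms was not protein coding for 4 of these genes. They were Abcg1 in replicates 2 and 3 (Abcg1-202 at 28.69 and 19.71 TPM) and Insig1, Scap and Apoe in replicate 1. For Insig2 in replicate 1 the retained intron Insig2-211, at 3.42 TPM, exceeded Insig2-201 at 1.64, but the coding Insig2-212 was highest at 4.05. Over all 34 genes the highest isoform by mean led each library for 21. The same count over all expressed genes is not given here, so it is a description of the set only.

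Srebf1 has coding isoforms from both of the promoters printed above. Srebf1-201 begins 23 bases from the upstream RefSeq start and was at 6.96, 11.74 and 9.60 TPM. Srebf1-207 begins 6 bases from the downstream start, 10139 bases away, and was at 1.05, 1.43 and 0.48 TPM. Their deposited credibility intervals did not overlap in any library, at 5.25 to 7.20 against 0.421 to 1.65 in replicate 1.

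The upstream coding form was thus 6.63, 8.21 and 20.0 times the downstream coding form, and 3.31, 2.50 and 2.57 times in the read-based values. These ratios leave out Srebf1-208, a processed transcript that begins near the downstream start, at chr11:60210392. It was at 0.16, 0.00 and 0.00 TPM, but at 7.86, 0.635 and 0.191 TPM read-based, above Srebf1-201 in replicate 1 (5.82 TPM). Srebf1-204, at the third listed promoter, is left out as well. Read-based, it was at 9.46, 2.78 and 6.17 TPM, above Srebf1-201 in replicate 1 and below it in replicates 2 and 3. The downstream promoter is the one that holds the loose LXR repeat. Processed transcripts, which are annotated without a coding sequence, held 65.2% ± 5.24 of the TPM of Srebf1, but 18.6% of its expected counts.

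**Figure D4:**
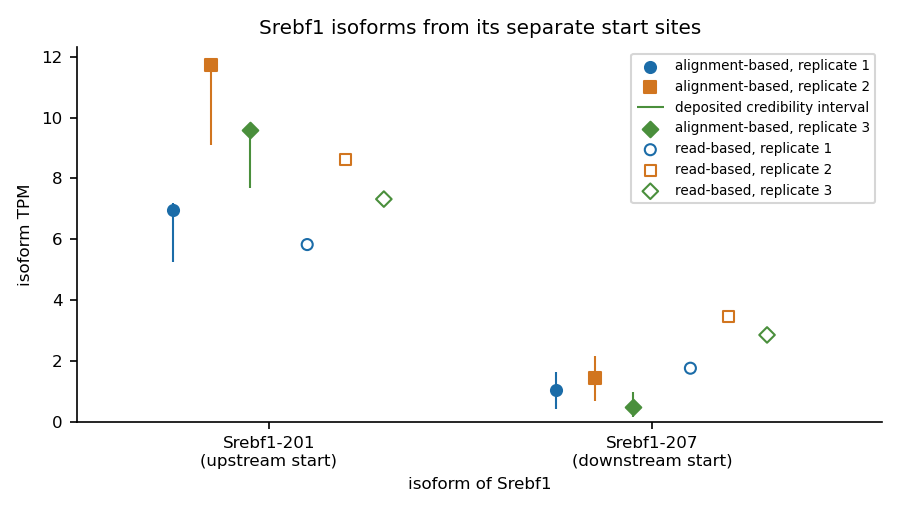
TPM of the Srebf1 coding isoforms from the upstream and the downstream start; filled symbols are alignment-based values with the deposited credibility interval as a line, open symbols read-based values, 1 per library. Srebf1-201 lies above Srebf1-207 in each library by both quantifications.

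The read-based quantification gave higher values for all 17 enzymes and for 29 of the 34 genes. The median ratio of read-based to alignment-based TPM was 1.57 for the enzymes, 1.22 for the LXR targets and 1.31 over expressed protein-coding genes. Higher read-based values were thus common among expressed genes in general, and the share of those genes with a higher value was not counted. Dhcr7 differed most, with 1.10 TPM alignment-based and 6.04 read-based, of which 4.57, 5.16 and 3.98 TPM in replicates 1, 2 and 3 lay on the processed transcript Dhcr7-206, which the alignment-based table placed at 0.00, 0.15 and 0.00. Mvd was at 4.46 TPM alignment-based and 10.4 read-based, of which 5.14 lay on Mvd-202, an isoform annotated for nonsense-mediated decay and listed at 0 in the alignment-based table. Ch25h, Scd2, Apoe, Insig1 and Nr1h3 were the 5 genes that were lower in the read-based values.

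**Figure D5:**
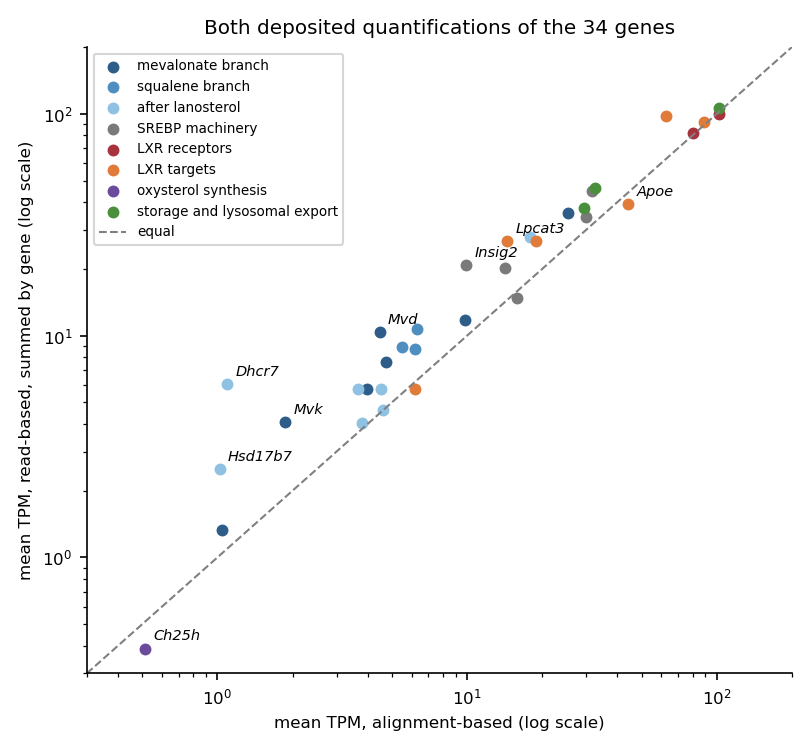
Mean TPM of each gene over 3 libraries, alignment-based (x, log axis) against read-based (y, log axis), coloured by role, with the dashed line where both are equal. The enzymes lie above the line, Dhcr7 farthest from it (5.51 times).

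Of 34 other genes of the same pathways, 29 were expressed and 14 exceeded the median gene throughout, the same numbers as in the set. Among regulators of SREBP processing, 7 of 7 were expressed, led by Rnf145, a ubiquitin ligase for SCAP, at 80.65, 120.25 and 87.09 TPM. Of the uptake genes, 2 of 3 were, led by Lrp1, an endocytic lipoprotein receptor, at 91.05, 121.62 and 57.07 TPM, with Vldlr at 1 expected count in all. All 7 genes of sterol transport and ester breakdown were, led by Gramd1a, a sterol carrier between membranes, at 221.85, 397.86 and 359.22 TPM.

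The partners of LXR were all 4 expressed, with the corepressor Ncor1 highest at 90.59, 172.06 and 150.95 TPM and Rxra, the receptor that pairs with LXR, lowest at 3.38, 4.67 and 2.65. Of 9 further LXR and SREBP1 targets 6 were expressed, and Acly, which makes cytosolic acetyl-CoA, and Lpl, the lipoprotein lipase, were the highest, at 36.48, 52.62 and 47.74 TPM and at 42.75, 36.72 and 52.32 TPM, with Lpl above Acly in replicates 1 and 3. The desaturase Scd1 and the apolipoproteins Apoc1 and Apoc2 were not expressed. The median of these 9 genes lay under the median gene in each library, at -1.26, -0.697 and -0.482 (log2). The LXR targets of the set lay above it, so the position depends on which targets are listed. Of 4 other synthesis genes 3 were expressed, led by Ggps1, the geranylgeranyl diphosphate synthase, at 4.27, 7.34 and 4.62 TPM.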

How the data were processed

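For each of the 3 libraries the authors deposited gene and transcript tables with expected counts and TPM, derived from alignments to the transcriptome, and a transcript table with estimated counts and TPM made from the reads. Per the deposited notes the build is mm10 with annotation M21. The sources used here give neither tool versions nor the use of strand. Deposited TPM sum to a fixed total over all rows, so abundant short RNAs lower all other values. Reads in introns that no annotated isoform holds do not count.

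The 34 members and the lists were chosen with earlier results of these data known. Every member is named, with its highest isoform. 1 cell type marker is not reported here. Of 81881 gene rows, 55536 matched the annotation. Expressed genes had no library with a TPM under 1. List medians used log2(TPM + 0.1). Rounded expected counts of genes with at least 10 in all were scaled with edgeR 4.0.16 (TMM, R 4.3.3). Read-based TPM were summed by gene. Motifs were searched in RefSeq promoters, a search chosen with known sites of this pathway in mind. The list, spread and motif code was tested on simulated data. Alternatives were other thresholds, pseudocounts, isoforms, quantifications and scalings (DESeq2 1.42.0), and leaving out each replicate.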

Additional observations from a re-analysis of the deposited data

How the results depend on the processing

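The enzymes stayed below the 6 LXR targets of the set under every alternative run. No alternative put the 9 further LXR and SREBP1 targets in place of those 6. The median of the 9 was at -1.26, -0.697 and -0.482 (log2) from the median gene in replicates 1, 2 and 3. That of the enzymes was at -1.16, -1.52 and -1.52, so in replicate 1 the enzymes were higher than these 9 genes. The list difference of -2.59 (log2) was -2.24 with read-based TPM, -2.87 with protein-coding isoforms only and -3.84 with the efflux genes alone, and -2.46 to -2.72 without 1 replicate. The enzymes' distance from the median gene, -1.40, was -0.899 with read-based TPM, -1.11 with TPM rescaled without short (effective length under 200 bases) and mitochondrial genes, and -1.30 to -1.42 without 1 replicate. That of the LXR targets, 1.19, was 1.04 to 1.42 without 1 replicate. Rescaling raised each member 2.37 to 2.60 times and the 9245 genes expressed before it by a median of 1.31 (log2). With 10328 genes then expressed, the median gene drawn again rose by 1.02. The count of expressed members, 29, was 18 at a TPM of 5, 33 at 0.5, with read-based and with rescaled TPM, and 29 to 31 without 1 replicate. Over all protein-coding genes the count is given here only at a TPM of 1, before and after rescaling (9245 and 10328). At the other settings the members' count therefore cannot be set beside that of all genes. The enzymes' median SD of 0.277 was 0.171 to 0.324 without 1 replicate, and that of the LXR targets 0.318 to 0.420. The members' median share of isoforms other than protein coding, 44.3%, was 20.6% of expected counts and 41.0% to 46.5% without 1 replicate. Read-based TPM moved 22 of the 34 gene levels by more than their SD. The cause of these moves was not tested. No paired analysis was possible because there is 1 group. Depth limits Ch25h, Dhcr7, Mvk, Hsd17b7 and Acat2 most.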
